A study of Mus musculus with 6 samples.

Results

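Enterochromaffin cells were identified in single-cell RNA sequencing of mouse ileal crypts as enteroendocrine cells that held a transcript of Tph1, the rate-limiting enzyme of serotonin synthesis. Of 17104 barcodes kept as cells, 274 met this rule. A kept barcode had at least 1000 unique molecular identifiers (UMIs, each marking 1 captured transcript molecule), at least 500 genes and at most 20% mitochondrial UMIs. An enteroendocrine cell had at least 3 of the 8 genes Chga, Chgb, Neurod1, Cpe, Sct, Isl1, Fev and Rfx6, with at least 0.1% of its UMIs in them, and 524 cells passed. An enterochromaffin cell also had at least 1 Tph1 UMI, so the members were chosen by measured values, and the other 250 enteroendocrine cells served as the comparison.

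The crypt cells had been sorted for EpCAM, an epithelial surface protein, and were loaded on the MobiNova-100 droplet platform. The 3 Fpr2f/f libraries (genotype label WT) came from mice whose Fpr2 gene, encoding a formyl peptide receptor, carries recombination sites on both alleles and was left in place. The 3 Fpr2VKO libraries came from mice with the same floxed alleles and a Cre recombinase under the Villin promoter, which is active throughout the intestinal epithelium and so is not particular to enteroendocrine cells. The floxed line was on a C57BL/6J background, and the background of the Villin-Cre line is not given in the sources used here. Mice were 8 to 12 weeks old, matched for sex and age. The study names as many mice per group as there are libraries, but the labels do not tie each library to a single animal, so the p-values measure the spread between libraries.

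Enterochromaffin cells are the most numerous endocrine cells of the gut and make most of the serotonin of the body. They take up tryptophan, hydroxylate it with Tph1, convert the product to serotonin with the decarboxylase Ddc, and load it into chromogranin-rich granules through vesicular monoamine transporters. They respond to irritants, microbial metabolites and nutrients through ion channels and G protein-coupled receptors. In the crypt they arise from Neurog3-positive progenitors, and they share the intestine with endocrine cells that make peptide hormones such as glucagon-like peptides, Gip, ghrelin, Pyy and neurotensin.

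The libraries held 90142126 to 189516114 UMIs. The UMI and gene limits were met by 12027, 13764 and 9736 barcodes in Fpr2f/f and 22872, 11596 and 13007 in Fpr2VKO replicates 1 to 3. Their median mitochondrial share was 26.3 to 39.3% per library, so the 20% limit removed most of them. It kept 1868 to 4722 barcodes per library, and shares of kept barcodes refer to these only. The 274 members had a median of 13516 UMIs and the 250 comparison cells 10236.5, against library medians of 3033 to 6728.5 over all kept barcodes. The gap varied by library, with medians of 17865 and 4766 in Fpr2f/f replicate 2. Only in Fpr2f/f replicate 3 were the members shallower (8150 and 11557). Whether some comparison cells are enterochromaffin cells whose Tph1 was missed was not tested. No member shared its barcode with a member of another library, while 4 member barcodes were kept in another library outside its members. Summed over the 15 pairs of libraries, 125 kept barcodes were shared (50.6 would be shared by random draws). Pairs among replicates 1 and 2 of either genotype shared 8 to 23 barcodes (2.54 to 5.54 by random draws). Replicates 3 of both genotypes shared 9 (2.25), and the remaining pairs 0 to 4 (1.79 to 5.68). The origin of this grouping was not tested. Whether Fpr2 was lost could not be examined, since it had 0 UMIs in any kept barcode of either group. Its transcription unit overlaps that of Fpr3 on the same strand. In the 4017698 UMIs of the members, Fpr1 had 2 UMIs and Fpr3 had 0, and 3 counts in these cells equal 0.747 CPM (counts per 1000000 UMIs of the summed cells).

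Cells at the limit of the Tph1 rule are given first, as a description, beside the 250 enteroendocrine cells at 0. Of the members, 23 held exactly 1 Tph1 UMI, 16 held 2, 11 held 3, 7 held 4, 6 held 5 and 211 held 6 or more. The median was 18.5 Tph1 UMIs per member and the highest 133. Outside the enteroendocrine cells, 177 kept barcodes held Tph1, with a median of 15984 UMIs per barcode, and 167 of them held exactly 1 Tph1 UMI. The 177 were left out by the rule because 85 had none of the 8 genes, 50 had 1, 32 had 2, and 10 had 3 or more that summed to under 0.1%. Among the members, 3 had between 0.1 and 0.2% of their UMIs in the 8 genes and 210 had at least 3%.

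The genes that chose the cells are given as a description. The chromogranins Chga and Chgb, acidic proteins that condense granule content, were found in 98.9 and 100% of members and in 83.2 and 82.4% of comparison cells. The transcription factors Fev and Rfx6 were found in 83.2 and 82.8% of members, and the granule processing enzyme Cpe in 92.7%. Secretin (Sct) was found in 88.3% of members. The transcription factor Isl1 was found in 2.55% of members and 72.8% of comparison cells, so it contributed almost nothing to the choice of members. Neurod1, the remaining marker of the label, had 0 UMIs in all kept barcodes. It lies inside Cerkl on the same strand of chromosome 2 (79452521 to 79456751), and the label therefore rests on Tph1, Chga and Chgb, which the members do carry.

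Promoters are shown for Tph1, which chose the members, and Tac1, which nearly all of them held, with the letters TAATTA, a core recognised by many homeodomain proteins such as Lmx1a, in capitals. Each runs from 250 bases before to 50 bases after a RefSeq start on GRCm38.p6. Tph1 has 2 RefSeq starts on the minus strand of chromosome 7, chr7:46672488-46672787 and chr7:46667328-46667627, and Tac1 has 1 on the plus strand of chromosome 6, chr6:7554811-7555110.
Tph1, first start: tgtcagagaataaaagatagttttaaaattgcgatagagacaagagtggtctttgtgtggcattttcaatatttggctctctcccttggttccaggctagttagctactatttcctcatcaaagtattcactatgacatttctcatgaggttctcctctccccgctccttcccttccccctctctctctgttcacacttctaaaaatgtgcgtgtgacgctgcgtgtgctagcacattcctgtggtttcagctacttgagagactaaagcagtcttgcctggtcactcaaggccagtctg
Tph1, second start: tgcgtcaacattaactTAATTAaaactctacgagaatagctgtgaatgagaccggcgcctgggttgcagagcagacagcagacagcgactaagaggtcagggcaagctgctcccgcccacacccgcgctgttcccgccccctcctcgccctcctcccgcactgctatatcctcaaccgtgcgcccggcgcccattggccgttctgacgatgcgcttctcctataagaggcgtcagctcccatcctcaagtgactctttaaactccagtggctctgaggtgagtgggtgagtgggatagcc
Tac1: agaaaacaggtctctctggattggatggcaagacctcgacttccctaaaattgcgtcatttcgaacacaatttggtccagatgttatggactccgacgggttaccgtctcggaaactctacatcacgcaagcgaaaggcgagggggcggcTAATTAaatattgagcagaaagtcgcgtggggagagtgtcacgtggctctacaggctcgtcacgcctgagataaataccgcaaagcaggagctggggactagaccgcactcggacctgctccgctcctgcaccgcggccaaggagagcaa
The letters, which read the same on both strands, occur once in the window of the second Tph1 start (bases 17 to 22) and once in that of Tac1 (bases 151 to 156). They are absent from the first Tph1 window and from that of Lmx1a (chr1:167689308-167689607). Of 32851 such windows of 27025 genes, 5.29% hold TAATTA. Slc18a1 had no entry in the promoter table.

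The share of enterochromaffin cells was compared between genotypes to ask whether loss of epithelial Fpr2 altered their number. They made up 2.76% (73 of 2643), 1.40% (66 of 4722) and 0.599% (17 of 2836) of kept barcodes in Fpr2f/f replicates 1, 2 and 3. In Fpr2VKO replicates 1, 2 and 3 they made up 2.03% (46 of 2267), 1.48% (41 of 2768) and 1.66% (31 of 1868). All 3 Fpr2VKO values lay within the Fpr2f/f range, whose ends differed beyond their exact 95% binomial intervals (2.17 to 3.46% in replicate 1 and 0.350 to 0.958% in replicate 3, counting error only). The means were 1.59% ± 1.09 in Fpr2f/f and 1.72% ± 0.279 in Fpr2VKO (SD, n = 3 each, two-sided exact permutation test, p = 0.8, where 0.1 is the smallest p that 3 against 3 allows).

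Detection of Tph1 depends on depth, so the share among enteroendocrine cells was taken after thinning each cell to 3000 UMIs. It was 53.3, 59.8 and 33.3% in Fpr2f/f and 51.3, 43.4 and 44.9% in Fpr2VKO (replicates 1 to 3). The groups overlapped, with means of 48.8% ± 13.8 and 46.5% ± 4.2 (SD, n = 3 each, two-sided exact permutation test, p = 0.9). The difference in the share of kept barcodes turned from 0.137 to -0.357 percentage points without Fpr2f/f replicate 3 and to -0.0160 without Fpr2VKO replicate 1, and that among enteroendocrine cells from -2.25 to 3.24 without Fpr2f/f replicate 2.

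**Figure D1:**
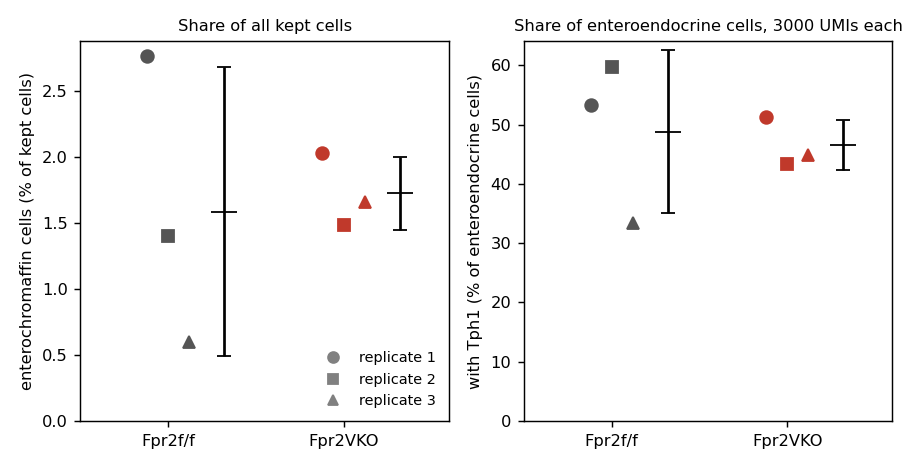
Enterochromaffin cells as a percentage of kept cells (left) and as a percentage of enteroendocrine cells thinned to 3000 UMIs (right), 1 point per library, with the mean and SD of each group in black. The Fpr2VKO points (1.48 to 2.03% on the left) sit inside the range of the Fpr2f/f points (0.599 to 2.76%).

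Against all other kept barcodes, described with no test, Tac1 stood highest among the genes outside the rule. Tac1 encodes the precursor of substance P and neurokinin A, neuropeptides that act on gut muscle and nerves. It reached 6130, 7906 and 5358 CPM in the summed members of Fpr2f/f replicates 1 to 3 and 6567, 5561 and 5292 CPM in those of Fpr2VKO. All other kept barcodes together had a mean of 7.25 CPM. The next genes by fold, outside the rule, were Vim (an intermediate filament), Rab3c (a vesicle GTPase), Nrg1 (a growth factor) and Scn3a (a voltage-gated sodium channel subunit), with means of 2366, 1168, 1894 and 1184 CPM. Further genes among the leading 20 were Afp, Gstt1, Pcsk1, Lmx1a, Tpbg, Trpa1, Ncam2, Hmgn3, Rasal2, Glis3, Ssbp2 and Stxbp5l. Afp, the fetal serum protein alpha-fetoprotein, had member sums from 102.6 to 1876 CPM.

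At 3000 UMIs per cell, 247 members, 203 comparison cells and 7822 cells with none of the 8 enteroendocrine genes could be compared for the share of cells with a UMI. The last group gives the share in cells outside the endocrine class, which may express a gene themselves or hold free RNA, and whose median depth before thinning was 4126 UMIs. Tac1 was found in 96.7% ± 2.53 of members (mean ± SD of 6 libraries), in 21.5% of comparison cells and in 0.985% of cells without enteroendocrine genes. Ddc was found in 94.6, 84.0 and 14.7% of these classes. The vesicular transporter Slc18a1 was found in 72.2, 19.6 and 3.73%, and its relative Slc18a2 in 18.8, 0 and 0.0520%. Slc6a4, the serotonin uptake carrier, was found in 0.666% of members, below the 5.45% of cells without enteroendocrine genes, and is not read as expression in the members.

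**Figure D2:**
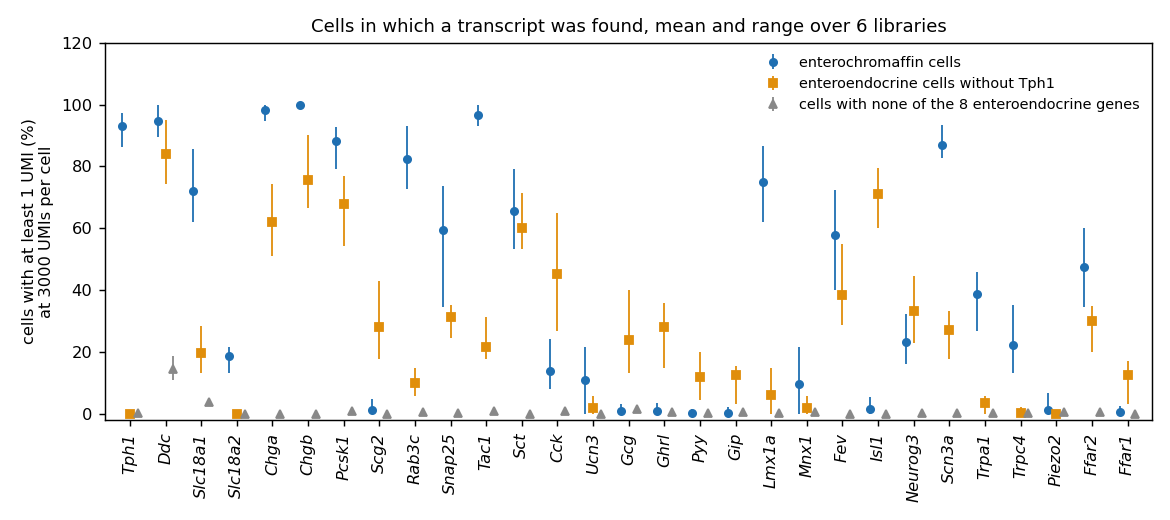
Percentage of cells with at least 1 UMI of each gene at 3000 UMIs per cell, as the mean (symbol) and range (line) over the 6 libraries, for enterochromaffin cells, enteroendocrine cells without Tph1 and cells with none of the 8 enteroendocrine genes. Tac1, Lmx1a, Scn3a and Rab3c are found in 75.1 to 96.7% of enterochromaffin cells and in 6.23 to 27.1% of the comparison cells, while Isl1 and most peptide hormones are found in the comparison cells.

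The members were not uniform in their peptide hormones. Of the 247 thinned members, 166 held both Tac1 and Sct, 73 held Tac1 alone, 2 held Sct alone and 6 held neither. The share with Sct per library was 62.9, 79.0 and 53.3% in Fpr2f/f and 69.0, 70.3 and 58.6% in Fpr2VKO replicates 1 to 3, so the groups overlapped. Per 10000 UMIs of unthinned members, the median was 60.2 Tac1 UMIs with quartiles of 31.2 and 83.2, while Sct had a median of 4.64 with quartiles of 1.64 and 13.4. Secretin, which drives bicarbonate release, is one of the genes that chose the cells, so its counts are a description.

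**Figure D3:**
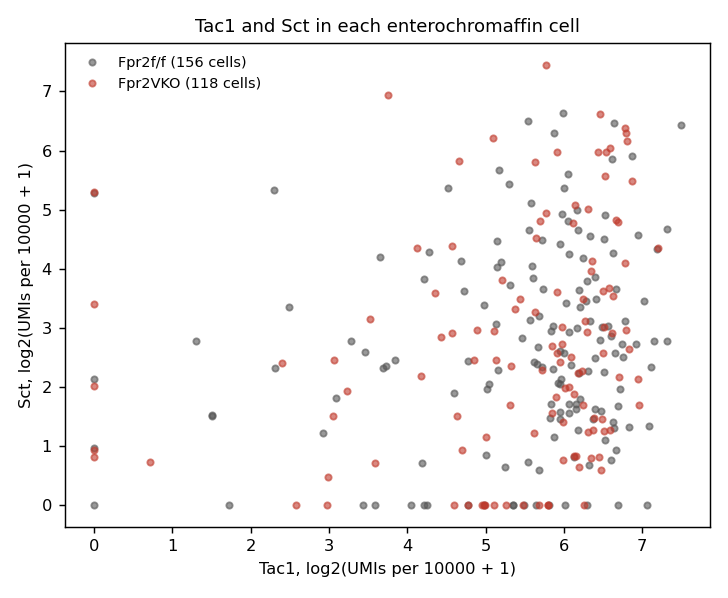
Tac1 (x axis) and Sct (y axis) in each of the 274 enterochromaffin cells as log2 of UMIs per 10000 plus 1, coloured by genotype (156 Fpr2f/f and 118 Fpr2VKO cells). Most cells lie at high Tac1 with Sct ranging from 0 upward, and the genotypes are intermixed.

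Other hormones were found in fewer of the 247 thinned members. Of Cck, Gcg, Sst, Ghrl, Nts, Pyy and Gip, 206 thinned members held none, 40 held 1 and 1 held 3. Cck, the hormone of gallbladder contraction, had a UMI in 36 thinned members, 13.9% on average over libraries, against 45.2% of comparison cells and 1.01% of cells without enteroendocrine genes. In unthinned cells 96 of the 274 members (35.0%) held a Cck UMI. Ucn3, a peptide of the corticotropin-releasing factor family, was found in 31 thinned members and in 11.1% of members on average over libraries (0 to 21.6%). In unthinned cells, 1 member held 98.5% of the Gcg UMIs of all members, and a single member held 67.8% of their Cck UMIs, in Fpr2VKO replicate 2, where Cck reached 1711 CPM against 57.2 to 236 CPM in the other libraries.

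Neurog3, the transcription factor of endocrine progenitors, was found in 23.2% of members on average over libraries, against 33.2% of comparison cells and 0.264% of cells without enteroendocrine genes.

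Enterochromaffin cells were then compared with the enteroendocrine cells without Tph1 in the same libraries, on UMIs summed per library and class. Of 8794 genes tested outside the 9 that chose the cells, 1510 (17.2%) differed at an adjusted p under 0.05, 891 of them higher (10.1%) and 619 lower (7.04%) in enterochromaffin cells (edgeR quasi-likelihood test, library as block, Benjamini-Hochberg adjustment over all genes tested). The median log2 fold change of all genes tested was -0.02. The gene groups that follow were chosen with earlier results of these data known, and their counts are to be read against these percentages.

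Genes that make and store serotonin were among the higher genes. Of 10 tested genes of serotonin handling, 5 were higher and none lower, with a median log2 fold change of 0.84. Slc18a2, a vesicular monoamine transporter, had 113, 123 and 68.6 CPM in Fpr2f/f and 110, 129 and 51.3 CPM in Fpr2VKO members, and 3 UMIs in all comparison cells. Every member sum was far above every comparison sum (log2 fold change 6.37 ± 0.40 SE, edgeR quasi-likelihood adjusted p = 2.93e-12). Slc18a1 was higher by 2.62 ± 0.14 on the log2 scale (SE), and Gch1, which makes the first step toward the cofactor tetrahydrobiopterin that Tph1 needs, by 1.5 ± 0.13. Qdpr, which regenerates that cofactor, was higher by 1.14 ± 0.16. Ddc was higher by 0.54 ± 0.12, from 1012 ± 159 CPM without Tph1 to 1470 ± 191 CPM (mean ± SD), higher in 5 of 6 libraries. The cofactor genes Pts, Spr and Pcbd1 and the degrading enzymes Maoa and Maob did not pass the test, with adjusted p from 0.119 for Maob (60.7 against 17.1 CPM) to 0.958 for Spr. Maob passed as higher with DESeq2 (adjusted p = 0.0398) and, with edgeR, without Fpr2VKO replicate 2 (0.0181). It also passed with a mitochondrial limit of 40% (0.0469) and without a low-count filter (0.00131).

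The hormones fell into both directions. Of 10 tested hormone genes, 3 were higher (Tac1, Ucn3 and Iapp) and 7 lower (Gip, Pyy, Gcg, Ghrl, Nts, Sst and Cck), with none left uncalled and a median log2 fold change of -8.83. Tac1 was higher by 5.25 ± 0.59 on the log2 scale (SE, edgeR quasi-likelihood adjusted p = 0.00267), from 221.6 ± 244.4 to 6136 ± 997 CPM (mean ± SD, 6 libraries). Ucn3 was higher by 4.28 ± 0.37. Nts, which encodes neurotensin, and Sst, which encodes somatostatin, had 1 UMI each in all members against 2179 and 908 in comparison cells. Pyy had 3 against 3657, and Gip 9 against 15770. Cck was lower by 5.20 ± 0.79 on the log2 scale, from 7048 ± 4186 to 378 ± 656 CPM. With DESeq2 the calls of Sst (log2 fold change -2.14, adjusted p = 0.908) and Nts (adjusted p = 0.0536) were lost, and Sst was lower in 3 libraries and Nts in 4. The call of Gcg was lost without each library except Fpr2VKO replicate 2 (adjusted p = 0.0741, 0.0621 and 0.0656 without Fpr2f/f replicates 1, 2 and 3, 0.0766 and 0.0619 without Fpr2VKO replicates 1 and 3). Without Fpr2VKO replicate 2 it was 7.83e-10. The call of Iapp, the islet peptide amylin, was lost without Fpr2f/f replicate 1 (0.152) or 2 (0.0685) and without Fpr2VKO replicate 1 (0.0604).

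Transcription factors of endocrine subtypes followed opposite directions. Of 17 tested, 3 were higher, 6 lower and 8 not called, with a median of -0.25. Lmx1a, a LIM homeodomain factor, was higher by 5.06 ± 0.42 on the log2 scale (SE), from 20.3 ± 14.9 to 616 ± 129 CPM (mean ± SD, 6 libraries). It was found in 75.1% of thinned members and 6.23% of comparison cells. Mnx1 was higher by 3.17 ± 0.35 and Foxa1 by 0.84 ± 0.16. Pax6, a factor of peptide-hormone cells, was lower by 1.77 ± 0.17. Etv1, Hhex, Sox4 and St18 were also lower, by 3.3, 3.21, 0.97 and 0.64. The call of Etv1 was lost without Fpr2VKO replicate 1 (adjusted p = 0.0532) and that of Sox4 with doublets removed (0.0585). Neurog3 (adjusted p = 0.347), Nkx2-2 (0.942), Insm1 (0.173) and Pax4 (0.204) did not pass the edgeR quasi-likelihood test. With cells thinned to equal depth, Neurog3 (log2 fold change -1.29, adjusted p = 9.81e-04) and Insm1 (-0.50, 0.0154) passed as lower, and Neurog3 also passed without Fpr2VKO replicate 2 (-0.93, 0.00920).

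Ion channels and receptors also split. Of 10 tested channels, 4 were higher (Trpa1, Trpc4, Scn3a and Cacna1d) and 3 lower (Abcc8, Cacna1c and Kcnb2), with a median of 0.32. Trpa1, an irritant-gated cation channel, had 414, 581 and 197 CPM in Fpr2f/f and 673, 750 and 225 CPM in Fpr2VKO members, against 8.67 ± 9.57 CPM in comparison cells (log2 fold change 5.87 ± 0.47 SE, edgeR quasi-likelihood adjusted p = 1.01e-04). Both replicates numbered 3 were the lowest of their groups. Abcc8, the sulfonylurea receptor subunit of potassium channels, was lower by 5.34 ± 0.31 on the log2 scale. The lower level of Kcnb2 lost its call without any 1 of the 6 libraries (adjusted p 0.0561 to 0.137). Piezo2, a mechanically gated channel, had 7 UMIs in members and 7 in comparison cells, and was found in 2 of 247 thinned members (0.810%) beside 0.652% of all thinned cells without enteroendocrine genes.

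Of 8 tested receptors, 2 were higher, 5 lower and 1 not called, with a median of -2.42, also with Olfr558 at its lower bound. Olfr558, an odorant receptor for short branched fatty acids, had 76 UMIs in members and 0 in comparison cells, which was at least 18.3-fold higher (3 counts pooled over the comparison cells). The call was kept in 11 of the 12 alternatives in which it could be tested, and lost with DESeq2 (adjusted p = 0.284). Only 20 of the 274 members held an Olfr558 UMI, and 77.6% of its UMIs lay in 10 cells. Ffar2, a receptor for short-chain fatty acids, was higher by 0.70 ± 0.15 on the log2 scale (SE), from 154 ± 44.8 to 253 ± 68.2 CPM, and its call was lost with cells thinned to equal depth (0.48, adjusted p = 0.104). The long-chain lipid receptors Ffar1, Ffar4 and Gpr119, the cannabinoid receptor Cnr1 and the galanin receptor Galr1 were lower, with log2 fold changes of -4.47, -2.21, -5.29, -6.01 and -2.63. Gpr119 had 4 UMIs in members against 116, and Cnr1 had 2 against 119.

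Of 10 tested granule genes, 4 were higher (Ptprn, Vgf, Pcsk1 and Scg5), 1 was lower and 5 were not called, with a median of 0.61. The call of Scg5 was lost with cells thinned to equal depth (0.48, adjusted p = 0.255). Pcsk1, a prohormone convertase, was higher by 1.43 ± 0.12 on the log2 scale (SE), from 492 ± 71.0 to 1331 ± 206 CPM. Scg2, which encodes secretogranin, was lower by 7.09 ± 0.23, with 16 UMIs in members and 1467 in comparison cells. Of 13 tested exocytosis genes, 3 were higher (Rab3c, Snap25 and Unc13b), none was lower and 10 were not called, with a median of 0.04. Rab3c had 988 to 1336 CPM in the 6 member sums and 8.47 to 86.4 CPM in the comparison sums (log2 fold change 4.79 ± 0.47 SE, edgeR quasi-likelihood adjusted p = 0.00113). The related Rab3a and Rab3d did not pass the test (adjusted p = 0.541 and 0.917).

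**Figure D4:**
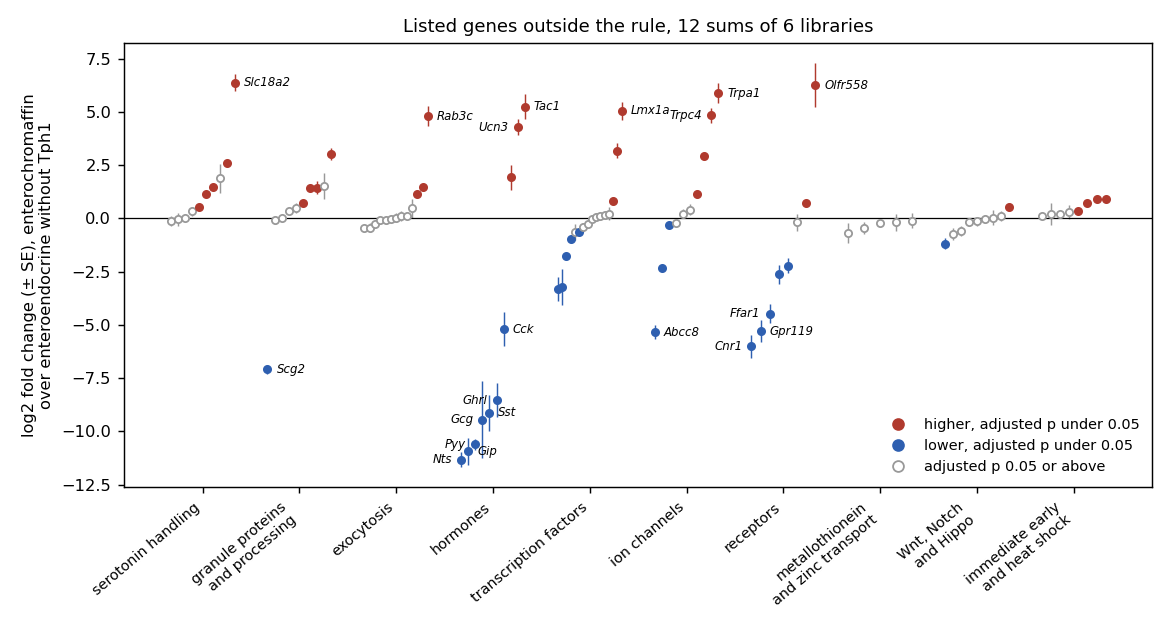
Log2 fold change (± SE) of the tested listed genes outside the rule that are reported here, enterochromaffin cells over enteroendocrine cells without Tph1 in the same 6 libraries, in columns by gene group, where red and blue points passed an adjusted p of 0.05 (edgeR quasi-likelihood test) as higher and lower and open points did not. The hormones reach from 5.25 for Tac1 to below -10 for Gip, Pyy and Nts, while metallothioneins and zinc transporters lie within 1 of 0.

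Of 9 tested genes of the Wnt, Notch and Hippo pathways, Dll4 was higher and Wnt3 lower, near the 17.2% of all genes called, with a median of -0.13. Dll4, a Notch ligand, was higher by 0.54 ± 0.18 on the log2 scale (SE), and its call was lost without each library except Fpr2f/f replicate 3 (adjusted p 0.0632 to 0.133). It was also lost with doublets removed (0.0564), DESeq2 (0.291) and cells thinned to equal depth (0.336), and Dll4 passed under 5 of the 17 alternatives. Of 8 immediate early and heat shock genes, 4 were higher (Atf3, Jun, Fos and Egr1, by 0.93, 0.91, 0.71 and 0.35) and 4 not called, with a median of 0.33. The call of Egr1 was lost without Fpr2VKO replicate 1 (adjusted p = 0.220), 2 (0.130) or 3 (0.0641), with a mitochondrial limit of 10% (0.0552), doublets removed (0.0730), DESeq2 (0.111) and cells thinned to equal depth (0.163). Immediate early genes also respond to dissociation of tissue. Median mitochondrial shares were 3.57 to 12.9% in members and 8.52 to 13.1% in comparison cells, and their part in these differences was not tested. None of the 5 tested metallothionein and zinc transport genes was called at an unadjusted p under 0.05 or at the adjusted one.

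Beyond the lists, the 15 higher and 15 lower genes of largest fold with at least 100 CPM and 1 direction in all 6 libraries were taken. Among all genes tested, 10.3% were higher and 8.16% lower in all 6 libraries. Pappa2, a protease that cuts insulin-like growth factor binding proteins, had 599 UMIs in members and 0 in comparison cells, at least 144-fold higher (3 counts pooled over the comparison cells). The trophoblast glycoprotein Tpbg was higher by 6.10 ± 0.27 on the log2 scale (SE), the amino acid transporter Slc38a11 by 5.88 ± 0.24, the channel Trpc7 by 5.46 ± 0.24 and the factor Sox5 by 5.22 ± 0.24. Nrg1 was higher by 5.998 ± 0.49, from 32.8 ± 33.2 to 1894 ± 287 CPM (mean ± SD, 6 libraries). Reg4, a secreted lectin, ranged from 114 CPM (Fpr2f/f replicate 3) to 11671 CPM (Fpr2VKO replicate 2) among the member sums and was higher by 6.06 ± 0.79. Afp, Tnfrsf11b, Vcan, Il18r1 and Adcy8 completed the higher genes beside Trpa1, Tac1 and Lmx1a.

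The lower genes outside the lists were Ooep, Fstl4, Fabp5, Rbp4, Scgn, Map2 and Scin. Fabp5, a fatty acid binding protein, was lower by 5.56 ± 0.51 on the log2 scale (SE), from 1560 ± 740 to 34.5 ± 32.7 CPM (mean ± SD, 6 libraries). The calcium sensor Scgn was lower by 5.04 ± 0.18, from 393 ± 117 to 12.7 ± 6.18 CPM. Ooep had 10 UMIs in members and 974 in comparison cells. Each was lower in 6 of 6 libraries.

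Markers of other cell classes were examined in the members. Vim, which is a stromal marker in tissue, was higher by 3.91 ± 0.34 on the log2 scale (SE), while the stromal markers Col1a1 and Sparc were at 0 in all members and Col3a1 had 1 UMI. Of 8 T lymphocyte markers, Cd3e, Cd3g, Cd8a and Nkg7 were at 0, and the 8 together held 1.89 to 4.84 CPM in Fpr2f/f and 0 to 8.40 CPM in Fpr2VKO members. Of 6 Paneth markers, Mmp7, a matrix protease, was higher (131.8 ± 62.6 against 31.3 ± 24.8 CPM, log2 fold change 2.1 ± 0.31 SE), and Itln1 and Lyz1 were lower. Ang4, Defa24 and Defa17 were not called. They passed as lower with a mitochondrial limit of 40% (edgeR quasi-likelihood adjusted p = 4.56e-06, 5.84e-08 and 7.32e-05) and without Fpr2VKO replicate 3 (0.0119, 0.00278 and 0.00262). The call of Itln1 was lost without Fpr2VKO replicate 1 (adjusted p = 0.0650) and that of Lyz1 without each library but Fpr2VKO replicate 3 (0.0617 to 0.0984). That of Itln1 was also lost without cells rich in Paneth or goblet transcripts (0.172), and that of Lyz1 with doublets removed (0.0980). Both were lost with a mitochondrial limit of 10% (0.190 and 0.617) and with thinned cells (0.309 and 0.352). With the 8 enteroendocrine genes at 0.3% of UMIs or more, both differences changed sign without a call (log2 fold change 0.10 for Itln1, adjusted p = 0.934, and 0.18 for Lyz1, 0.870). None of 7 goblet markers was called. Fcgbp passed as lower with a mitochondrial limit of 10% (adjusted p = 0.0249) and with cells thinned to equal depth (0.0423). Without enteroendocrine cells of either class rich in Paneth or goblet transcripts, Fcgbp (0.0197) and Tff3 (0.0183) passed as lower. Itln1, Fcgbp and Tff3 are among the markers that chose the cells left out, so their values without those cells are a description. Tff3 also passed as lower without Fpr2f/f replicate 3 (0.0249). Of 5 tested enterocyte markers, 2 were lower and 3 not called, with a median of -0.89. Sis, the brush border sucrase-isomaltase, was lower by 1.29 ± 0.16 on the log2 scale (SE, edgeR quasi-likelihood adjusted p = 1.18e-05), from 801 ± 165 to 325 ± 80.8 CPM, in 6 of 6 libraries and under all 17 alternatives. Fabp2, a fatty acid binding protein, was lower by 0.89 ± 0.20 (adjusted p = 0.00436). Its call was lost with cells thinned to equal depth (0.0848) and without enteroendocrine cells of either class rich in Paneth or goblet transcripts (0.0567). Rbp2 passed as lower with a mitochondrial limit of 40% (0.0466), doublets removed (0.0150), thinned cells (0.0128) and without Fpr2f/f replicate 3 (0.0185). Fabp1 passed as lower with doublets removed (0.0266) and without Fpr2f/f replicate 3 (0.0214) or Fpr2VKO replicate 3 (0.0401). Apoa1 passed as higher with a mitochondrial limit of 10% (0.0488).

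Goblet transcripts were uneven between libraries. Summed over the 7 goblet markers, members held 252 to 4240 CPM (Fpr2f/f) and 594 to 1141 CPM (Fpr2VKO) (two-sided exact permutation test, p = 0.4, n = 3 each). Comparison cells held 1279 to 11432 CPM (Fpr2f/f) and 560 to 1891 CPM (Fpr2VKO). At least 1% of UMIs lay in goblet markers in 11 members, 2 of Fpr2f/f replicate 1 and 9 of Fpr2f/f replicate 2, and in Paneth markers in 5 members. Leaving out enteroendocrine cells with at least 1% in either list gave 943 higher and 577 lower genes, and 1433 of the 1510 genes called above were called again.

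The comparison of Fpr2VKO with Fpr2f/f within enterochromaffin cells asked which transcripts of these cells depend on epithelial Fpr2. None of 8127 genes passed an adjusted p of 0.05 (0%, edgeR quasi-likelihood test), 276 (3.4%) fell under 0.05 before adjustment, and 2 were called by DESeq2. Without overlap between the groups, 293 genes (3.61%) were higher and 461 (5.67%) lower in Fpr2VKO. In simulated data with this design, 4.04% of genes changed by 1 on the log2 scale and 91.4% of genes changed by 2 were recovered. In these runs 0 and 13 unchanged genes were called. The changed genes were drawn only from genes of higher count in the members. The simulation gave all genes the same spread between libraries, set beforehand and not estimated from these data. In that setting changes of 1 and below were mostly out of reach. Its recovery need not hold for genes that vary more or have fewer counts. Genes that differed by more than 2 and were not called included Gm29051 (4.95), Mt1 (3.46), Cck (2.08) and Clca1 (-2.78). Differences reached -3.85 among the 7 goblet markers and 2.29 among the 4 tested stem cell markers, also without a call.

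The serotonin and hormone genes of the members did not pass the test. Tph1 had 1456, 2017 and 1492 CPM in Fpr2f/f and 2107, 1817 and 1087 CPM in Fpr2VKO members, with overlapping groups and a log2 difference of 0.05. Since Tph1 chose the cells, its level is a description. Tac1 differed by -0.11, Ddc by -0.08, Slc18a1 by -0.07 and Lmx1a by -0.18 on the log2 scale (adjusted p = 0.998 each, edgeR quasi-likelihood test). Of 10 tested serotonin genes other than Tph1, none had an unadjusted p under 0.05, with log2 differences from -0.42 to 0.70 and a median of -0.08. Over all genes tested the median was 0.01.

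Over the 10 lists of endocrine and signalling genes, from serotonin handling to immediate early genes, and leaving out the 9 genes that chose the cells, 4 of 84 tested genes (4.76%) had an unadjusted p under 0.05, near the 3.4% of all genes tested. These genes were Vgf (log2 difference -0.79), Ffar2 (-0.53), Mt1 (3.46) and Tead1 (-0.65). Among the markers of other cell classes, 1 of 6 Paneth genes (Mmp7, -0.97), 1 of 7 goblet genes (Clca1, -2.78) and 2 of 5 enterocyte genes (Fabp1, 0.98, and Apoa1, 1.62) had an unadjusted p under 0.05.

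Among the lists of endocrine and signalling genes, Mt1, a metal-binding protein, had the largest difference. The members held 61.7, 47.1 and 169 CPM in Fpr2f/f and 778, 791 and 974 CPM in Fpr2VKO. Every Fpr2VKO library was above every Fpr2f/f library, by 3.46 ± 0.42 on the log2 scale (SE, edgeR quasi-likelihood adjusted p = 0.0747). A UMI was present in 24.7, 31.8 and 58.8% of Fpr2f/f members and in 100, 90.2 and 96.8% of Fpr2VKO members. The gene passed the threshold without Fpr2f/f replicate 2 (adjusted p = 0.00372) or 3 (3.17e-08), with DESeq2 (1.87e-23) and without a filter on low counts (1.76e-44), but not without Fpr2f/f replicate 1 (0.798) or Fpr2VKO replicate 1, 2 or 3 (0.488, 0.355 and 0.337). It passed in 6 of 18 alternatives, with adjusted p up to 1.00. The 6 include a replicate block (edgeR quasi-likelihood adjusted p = 2.62e-06). They also include libraries of at least 20 members, which is the same fit as without Fpr2f/f replicate 3. The related Mt2 held 1.21 to 17.0 CPM in Fpr2f/f and 1.75 to 19.7 CPM in Fpr2VKO members.

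The same split was seen outside the members. Mt1 held 96.1 to 171 CPM against 813 to 861 CPM in enteroendocrine cells without Tph1, and 246 to 365 CPM against 1110 to 1175 CPM in cells outside the enteroendocrine class. Barcodes under 100 UMIs, which hold free RNA, had 148 to 236 CPM against 865 to 1111 CPM. The free RNA level was above the members' level in each of the 6 libraries, and the part of free RNA in the members' difference was not tested. The difference between genotypes did not pass the test of a difference between enterochromaffin and comparison cells (interaction 0.65 ± 0.27 SE on the log2 scale, edgeR quasi-likelihood adjusted p = 1).

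The Mt1 promoter is shown because its transcript separated the genotypes. The window chr8:94178839-94179138 on the plus strand (RefSeq, GRCm38.p6) carries in capitals the letters TGCACNC and TGCGCNC, the core of the metal response element, searched on both strands.
Mt1: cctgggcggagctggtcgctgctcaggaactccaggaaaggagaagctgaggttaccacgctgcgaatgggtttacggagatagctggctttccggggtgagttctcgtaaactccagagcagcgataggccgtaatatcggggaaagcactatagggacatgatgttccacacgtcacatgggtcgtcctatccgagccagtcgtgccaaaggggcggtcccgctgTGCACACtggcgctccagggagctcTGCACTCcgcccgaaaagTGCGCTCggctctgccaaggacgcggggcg
It holds 3 matches, at bases 228 to 234, 253 to 259 and 271 to 277 of the window. At least 1 match occurs in 25.7% of all windows and at least 3 in 1.97%. The Tph1 window of the second start holds 1 match and that of Tac1 none.

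Vil1, which encodes the microvillus protein villin, had 319, 367 and 265 CPM in Fpr2f/f and 666, 665 and 629 CPM in Fpr2VKO members. The groups did not overlap, with a log2 difference of 1.07 ± 0.18 (SE, edgeR quasi-likelihood adjusted p = 0.0726). Cells outside the enteroendocrine class held 297 to 356 and 397 to 446 CPM. Barcodes under 100 UMIs held 235 to 286 CPM in Fpr2f/f and 334 to 380 CPM in Fpr2VKO. The part of this free RNA in the members' difference was not tested. The Cre transgene of the Fpr2VKO mice carries the Villin promoter, and carrying the transgene and lacking Fpr2 cannot be told apart in these groups. Vil1 passed with DESeq2 (adjusted p = 8.84e-04) and with doublets removed (0.0310), and leaving out a library gave adjusted p from 0.0542 to 0.798. It also passed with mitochondrial limits of 10% (0.0228) and 40% (0.0271), at least 2 Tph1 UMIs (0.0301) and no low-count filter (0.00120). All 5 tested enterocyte markers also had positive differences, of which Fabp1 (0.98) and Apoa1 (1.62) had an unadjusted p under 0.05 and no overlap. The summed enterocyte markers held 416 to 577 CPM in Fpr2f/f and 545 to 742 CPM in Fpr2VKO members, none of the 7 at 0, and their part in the Vil1 difference was not tested. The predicted gene Gm29051 had 0, 1 and 0 UMIs in Fpr2f/f and 14, 11 and 12 in Fpr2VKO members (edgeR quasi-likelihood adjusted p = 0.0726). Its log2 difference of 4.95 ± 0.87 (SE) rests on 1 UMI in Fpr2f/f. Gm29051 passed with a mitochondrial limit of 40% (0.0271), at least 2 Tph1 UMIs (0.0491) and no low-count filter (0.00120).

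The remaining genes of lowest p with at least 50 CPM and no overlap are given as values that did not pass. Higher in Fpr2VKO members were Aig1 (138 ± 7.77 against 228 ± 6.61 CPM, mean ± SD, n = 3 each), Prlr, the prolactin receptor (65.7 ± 4.49 against 109 ± 23.4), Nr4a1, an immediate early nuclear receptor (135 ± 55.5 against 263 ± 76.8), and 9130016M20Rik. Lower were Dpysl3 (76.7 ± 15.2 against 29.99 ± 10.3 CPM), the Paneth marker Mmp7 (179 ± 43.1 against 84.4 ± 34.3; the other 5 Paneth markers had positive differences, 0.98 to 1.72, and none passed), Lmna, which encodes the nuclear lamins A and C (169 ± 33.6 against 91.5 ± 26.5), Clasp1, Alcam and Tram1. Their adjusted p lay between 0.734 and 0.998 (edgeR quasi-likelihood test).

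Without Fpr2f/f replicate 3, the library of 17 members, 5 genes passed: Mt1 higher and the goblet genes Clca1, Fcgbp, Zg16 and Agr2 lower in Fpr2VKO. The goblet markers all had negative log2 differences in the 6 libraries as well, from -3.85 to -1.06, and their sums are given above. Without Fpr2f/f replicate 2, 4 genes passed as higher in Fpr2VKO, namely Mt1 and the defensin genes Gm14851, Defa17 and AY761184, which belong to Paneth cells.

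The genotype difference itself differed between enterochromaffin and comparison cells for 3 of 8862 genes (0.0339%, edgeR quasi-likelihood test of the interaction), while 402 (4.54%) had an unadjusted p under 0.05. Reg3g, an antimicrobial lectin, had 427, 83.9 and 178 CPM in Fpr2f/f and 126, 446 and 108 CPM in Fpr2VKO members. In comparison cells it had 1025, 185 and 435 CPM against 115, 221 and 60.8 CPM. The members overlapped between genotypes, and the interaction was 1.95 ± 0.27 on the log2 scale (SE, adjusted p = 0.00102). For Dmbt1, a mucosal scavenger protein, the interaction was 2.02 ± 0.31 (adjusted p = 0.00265). Both are far more abundant outside the enteroendocrine cells, where Reg3g had 2233 to 6560 CPM and Dmbt1 641 to 1493 CPM, and free RNA held 798 to 2128 and 420 to 736 CPM. Their part in the members' values was not tested. Of the Reg3g UMIs of the members, 24.1% lay in 1 cell and 56.7% in 10 cells. Of their Dmbt1 UMIs, 25.2% lay in 1 cell and 55.8% in 10 cells.

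Afp gave an interaction of 5.50 ± 0.80 on the log2 scale (SE, edgeR quasi-likelihood adjusted p = 0.00265). Its size is not exact, since it rests on comparison cells at or near 0 UMIs. Within the members the log2 difference between genotypes was 0.67 (edgeR quasi-likelihood adjusted p = 0.998). The members held 486, 1278 and 206 CPM in Fpr2f/f and 1876, 1179 and 102.6 CPM in Fpr2VKO, which overlap. The comparison cells held 15, 16 and 0 UMIs in Fpr2f/f and 1, 0 and 0 in Fpr2VKO. Of the 4092 Afp UMIs of the members, 62.2% lay in 10 cells, and 98 members held any. Leaving out Fpr2f/f replicate 1 ended the calls of Reg3g, Afp and Dmbt1 (adjusted p = 0.0506, 0.0546 and 0.201), as did leaving out Fpr2VKO replicate 2 (0.162 each), and without Fpr2VKO replicate 1 that of Afp was lost (0.155). The call of Afp was also lost with DESeq2 (1.00), without cells rich in Paneth or goblet transcripts (1) and, with that of Dmbt1, with the 8 enteroendocrine genes at 0.3% of UMIs or more (0.426 and 0.160). None of the 3 calls was kept with a mitochondrial limit of 10% (adjusted p = 0.157 for Reg3g, 0.806 for Afp and 1 for Dmbt1) or of 40% (1 each).

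**Figure D5:**
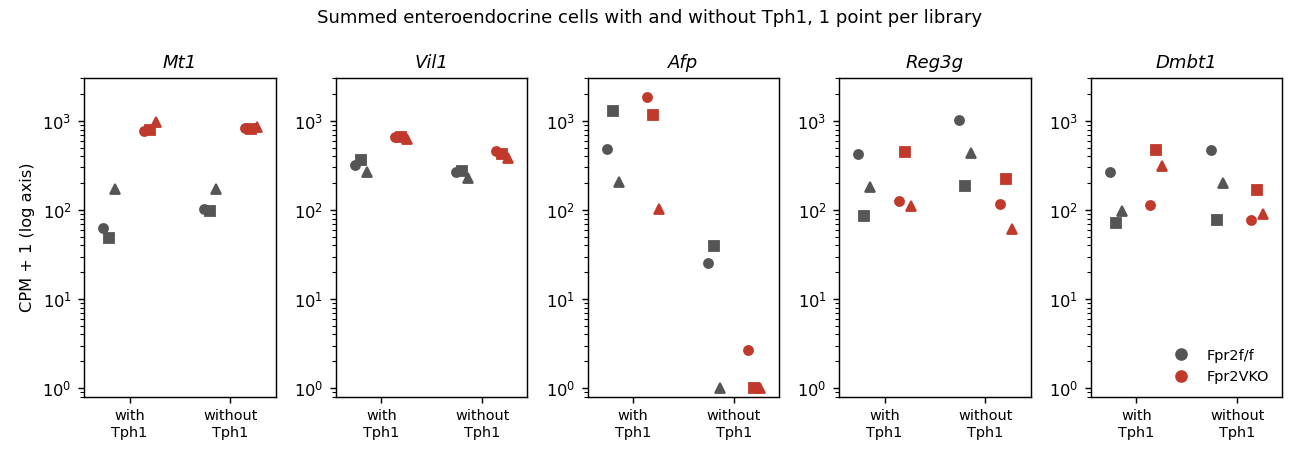
CPM plus 1 (log axis) of Mt1, Vil1, Afp, Reg3g and Dmbt1 in summed enteroendocrine cells with Tph1 (enterochromaffin) and without Tph1, 1 point per library, Fpr2f/f in grey and Fpr2VKO in red, with circles, squares and triangles for replicates 1, 2 and 3. Mt1 separates the genotypes in both classes (47.1 to 169 against 778 to 974 CPM in enterochromaffin cells), while Afp, Reg3g and Dmbt1 overlap between genotypes in enterochromaffin cells.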

How the data were processed

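Droplet counts of 3 Fpr2f/f and 3 Fpr2VKO libraries (90142126 to 189516114 UMIs each) were used as deposited. The authors made these UMI counts per gene and barcode with MobiVision 2.1 on mm10, and clustered cells with Seurat 4.0.0 afterwards; the annotation version is not given in the sources used here. No read-level step was repeated. Gene IDs (32235 of 32285) were matched to GENCODE M21.

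Barcodes were kept and enterochromaffin cells chosen as given above. UMIs were summed per library and class and tested by quasi-likelihood in edgeR 4.0.16 (under R 4.3.3, after TMM scaling and filterByExpr, Benjamini-Hochberg adjusted), with library as a block between classes and genotype alone between groups. Shares were tested with exact permutation tests. Cells were thinned to 3000 UMIs for detection (Python 3.11.15). No doublets were removed. Alternatives were other limits on mitochondrial share, UMIs, Tph1 and rule genes, doublet removal (scikit-learn 1.9.0), DESeq2 1.42.0, other size factors, no low-count filter, thinning, a replicate block and leaving out each library. One further alternative, leaving out cells rich in Paneth or goblet transcripts, was chosen after seeing the data. In simulated data the fit between classes recovered 36.0% of genes changed by 1 and 98.0% of genes changed by 2 on the log2 scale. In these runs 4 and 8 unchanged genes were called. The simulations gave all genes the same spread between libraries, set beforehand, and drew the changed genes from genes of higher count in the members.

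Named genes were the members of the lists; up to 15 genes per direction of largest fold between classes with at least 100 CPM and 1 direction in 6 libraries, without mitochondrial, ribosomal and predicted genes; up to 6 per direction of smallest p between genotypes with at least 50 CPM and no overlap; and the 20 of largest fold against all other cells (pseudocount 10 CPM). Gm29051 and the genes called without a library were named after their values were seen. The members and lists were chosen with earlier results of these data known. Intervals cover counting error only. A listed gene that counts toward the lists is not reported here by name.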

Additional observations from a re-analysis of the deposited data

Results flagged for a closer look

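The genotype difference of Reg3g, Afp and Dmbt1 differed between enterochromaffin cells and enteroendocrine cells without Tph1, by 1.95, 5.50 and 2.02 on the log2 scale (Fpr2VKO over Fpr2f/f, edgeR quasi-likelihood test of the interaction, adjusted p = 0.00102, 0.00265 and 0.00265). In each gene the enterochromaffin values of both genotypes overlapped. The Afp value is not exact in size, since its Fpr2VKO comparison cells held 1.69, 0 and 0 CPM.

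Among barcodes of 20 to 40% mitochondrial UMIs, which the comparisons did not use, 74 met the other limits of the enterochromaffin rule. They numbered 20, 9 and 5 in Fpr2f/f and 17, 14 and 9 in Fpr2VKO replicates 1 to 3, or 0.105 to 0.354% of such barcodes.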

How the results depend on the processing

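Of 77 listed or named genes called between enterochromaffin cells and enteroendocrine cells without Tph1, 62 kept their call in every alternative run. The alternatives of this comparison gave 2438 values of single genes, which include genes not called above. Among the values of called genes, 58 lost their call. A further 2 reversed, Itln1 (0.10) and Lyz1 (0.18), with the 8 enteroendocrine genes at 0.3% of UMIs or more. The interaction calls are not part of these counts. The 1510 calls became 992 with DESeq2 (608 higher, 384 lower) and 630 with cells thinned to equal depth, where fewer genes were tested, and 1106 to 1605 without 1 library. Of the 1510, 944 were called again with DESeq2 and 563 with thinned cells. Of the 1510, called again or not, 2 had the opposite sign with thinned cells and 3 with the 8 genes at 0.3% of UMIs.

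The difference in the share of kept barcodes (0.137 percentage points) reversed to -0.152 with a mitochondrial limit of 40%, -0.103 with at least 2000 UMIs and -0.00469 with doublets removed, and was -0.357 to 0.725 without 1 library. That among enteroendocrine cells (-2.25) reversed to 1.77 at 40%, 2.13 with at least 2 Tph1 UMIs, 0.338 without cells rich in Paneth or goblet transcripts and 5.28 without thinning, and was -9.99 to 3.24 without 1 library. The cause was not tested.

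Against 0 genes called between genotypes, 1 was called with a mitochondrial limit of 10%, 2 at 40%, 2 with at least 2 Tph1 UMIs and 1 with doublets removed. There were 2 with DESeq2, 19 without a low-count filter (13 higher, 6 lower) and 0 to 5 without 1 library. Libraries of at least 20 members gave 5, the same fit as without Fpr2f/f replicate 3. The 3 interaction calls became 0 at 10% and at 40%, 1 at 0.3% of UMIs, 8 without a low-count filter and 0 to 7 without 1 library. The cause was not tested.

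The labels do not say whether same-numbered libraries belong together. Correlations of deviations were -0.09, 0.09 and 0.21 for them and -0.31 to 0.28 for other pairs across genotypes. These values do not settle whether the numbers pair the libraries. With a replicate block, 1 gene was called between genotypes (Mt1, adjusted p = 2.62e-06), and the shares differed by 0.137 and -2.25 percentage points (exact sign-flip p = 0.75 each). Fpr2f/f replicate 3, with 17 members and 218565 UMIs, limits the precision of its group.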
